A study of Petunia x hybrida with 6 samples.

Results

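Among the gene IDs of the petunia corolla, 105 combined a very high level at 7PM with a level at least 4 times lower at 7AM. They were chosen by their measured values in the same 6 libraries described here. From the 35812 IDs of the deposited table, the 17515 with at least 60 counts over the 6 libraries were kept. Levels were expressed as CPM, counts per 1000000 of a library size scaled by TMM, a method that sets libraries to a common level on most genes. A member had a mean of at least 500 CPM at 7PM, at least 4 times its mean at 7AM, and a 7AM mean of at least 2 CPM. The height of the evening level and the size of the rise therefore define the set and are given as a description, without a test.

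The libraries held polyadenylated RNA from corollas of Petunia x hybrida, cultivar Mitchell, grown in a greenhouse under 14 h of light and 10 h of dark. Both groups shared the cultivar, the tissue and the light regime, and no treatment or other genotype is given in the labels. The 7AM group followed lights-on at 6 AM, the 7PM group preceded lights-off at 8 PM, and each comprised 3 libraries. The labels number the replicates without naming plants, so the spread between libraries may in part be technical. The sources used here do not give flower age or the number of flowers per library.

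The corolla is the whorl of petals, and in Mitchell flowers it is the main source of a scent made of volatile benzenoids and phenylpropanoids. These compounds derive from phenylalanine, which comes from the shikimate pathway, and they are released mainly at night. Transcripts of several enzymes of scent synthesis are known to accumulate late in the day, ahead of the release. The deposited table gives IDs alone, without names, functions or coordinates. The members can therefore not be assigned to scent synthesis or to any other pathway here, nor could the labelled tissue be checked against marker genes, and they are described by ID.

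Library totals ran from 16497054 to 18040038 counts. The TMM factor averaged 1.14 ± 0.01 in the morning libraries and 0.87 ± 0.02 in the evening libraries (SD, n = 3). No replicate pair was identical or within sampling noise; chi-square per degree of freedom lay between 6.93 and 31.5. Because gene lengths are not in the table, a rank or share below is one of counts, and a long transcript yields more counts than a short one at the same number of molecules. In bulk tissue, fewer cells of a type and less RNA per cell cannot be told apart.

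The 105 members together held a large block of the evening counts. Their summed counts made up 25.3%, 25.8% and 25.6% of all counts in 7PM replicates 1 to 3, a mean of 25.6 ± 0.24% (SD, n = 3). In 7AM replicates 1 to 3 the same genes held 2.67%, 2.06% and 2.80%, a mean of 2.51 ± 0.39%. The evening libraries were close to each other, and all lay far above the morning libraries. In absolute counts the members accounted for 4469793 to 4567657 per library at 7PM and 350375 to 461658 at 7AM. All other IDs were left with 74.4% of counts at 7PM, compared with 97.5% at 7AM. Without 7AM replicate 2, the lowest of the morning libraries, the rule gave 101 members holding 2.71% at 7AM and 25.4% at 7PM.

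**Figure D1:**
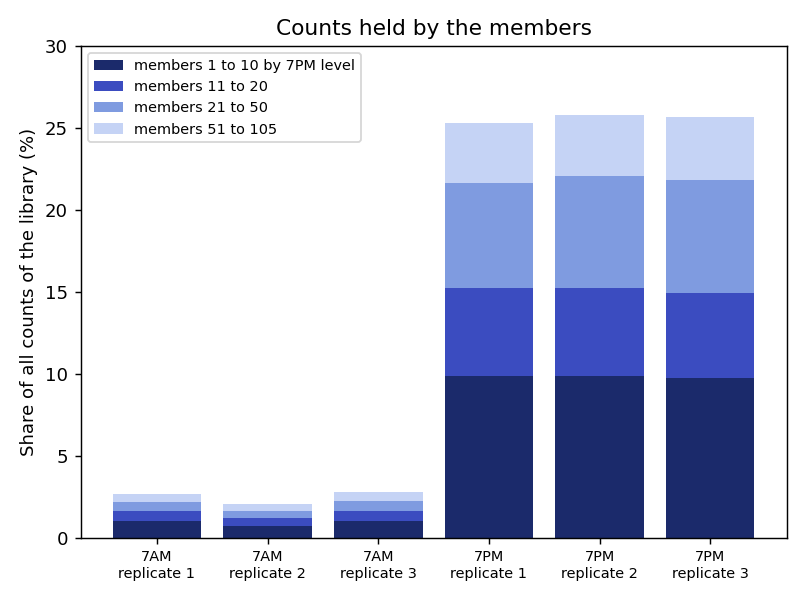
Share of all counts of each library (%, y axis) held by the 105 members, for the 3 libraries of 7AM and of 7PM, with the members split by their order of mean 7PM level. The bars stand between 2.06% and 2.80% at 7AM and between 25.3% and 25.8% at 7PM, and the first 10 members make up 9.84% of counts at 7PM on average.

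The counts were spread over many members, with a heavy top. The 10 members with the highest 7PM level held 9.84 ± 0.07% of all counts at 7PM (SD, n = 3) and 0.94 ± 0.17% at 7AM. The first 20 held 15.1 ± 0.17% at 7PM, and the first 50 held 21.8 ± 0.21%. The remaining 55 members added 3.75 ± 0.06%. Per gene, the share at 7PM ran from 0.044% to 1.81%, with a median of 0.108%.

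The division of counts within the set is given as a description, since the rule sets a floor of 500 CPM in the evening and of 2 CPM in the morning and so favours a more even division in the evening. The 10 members with the most counts in a library held 50.1 ± 1.30% of the member counts in the morning and 38.8 ± 0.94% in the evening (SD, n = 3). The effective number of members, the reciprocal of the summed squared shares, was 28.7 ± 1.36 at 7AM and 42.1 ± 1.56 at 7PM. It took 10 or 11 members to reach 50% of the member counts in a morning library and 15 or 16 in an evening library. The member with the most counts was Peaxi162Scf00294g00411 in 7AM replicates 1 and 2, Peaxi162Scf00064g00421 in 7AM replicate 3 and Peaxi162Scf00123g00096 in every 7PM library.

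Members crowded the top of the evening ranking. Of the 10 genes with the highest mean CPM at 7PM, 8 were members, as were 16 of the first 20, 38 of the first 50 and 60 of the first 100. The threshold of 500 CPM was passed by 249 genes at 7PM. Of these, 105 were members, 41 were 2- to 4-fold higher than at 7AM, 91 differed by less than 2-fold and 12 were at least 2-fold lower. By level, members were 6 of 8 genes of at least 10000 CPM, 13 of 16 between 5000 and 10000 CPM, 24 of 32 between 2000 and 5000 CPM, 19 of 51 between 1000 and 2000 CPM, and 43 of 142 between 500 and 1000 CPM.

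The evening leaders that were not members were high at both times. Peaxi162Scf00020g01714, first in rank at 7PM, was at 8661, 8903 and 8433 CPM in the morning and at 26187, 31093 and 27242 CPM in the evening, a ratio of 3.25 that fell short of the rule. Peaxi162Scf00889g00229, ranked 3, had a ratio of 1.66. Both already stood among the first 3 genes at 7AM, whereas no member was among the first 20 there.

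In the morning ranking the same 105 genes were scattered. Their rank had a median of 83 at 7PM, from 2 to 249, and a median of 1871 at 7AM, from 29 to 13783. At 7AM, 7 members were among the first 100 genes and 15 among the first 250. The median member stood 1753 places higher at 7PM than at 7AM, and the gain ran from 20 to 13549 places.

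**Figure D2:**
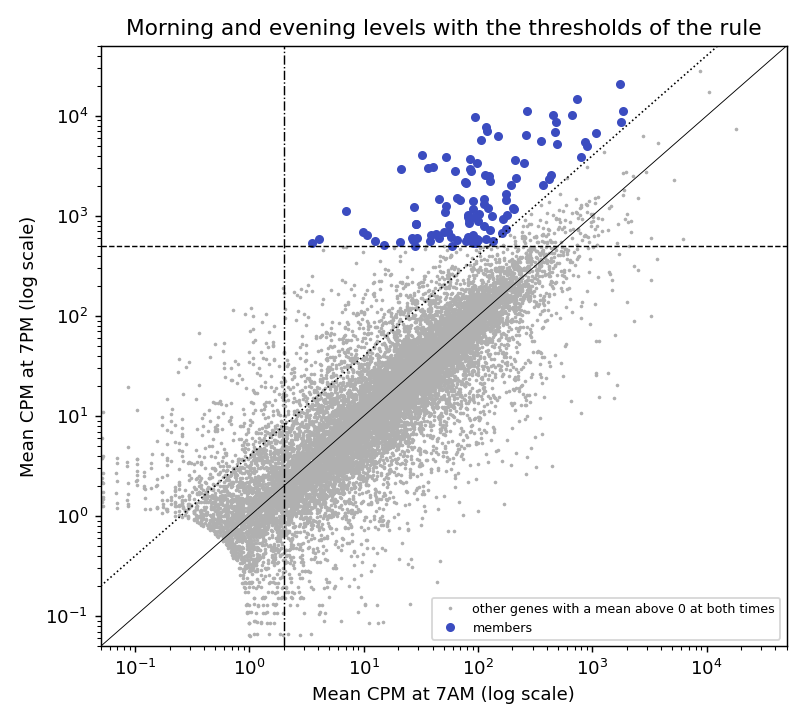
Mean CPM at 7AM (x axis, log scale) against mean CPM at 7PM (y axis, log scale), 1 point per gene, with the 105 members in blue and other genes in grey. The dashed line marks 500 CPM at 7PM, the dotted line a 4-fold ratio, the dash-dotted line 2 CPM at 7AM and the solid line equal levels. The members extend from 3.50 to 1844 CPM on the x axis.

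The member with the highest evening level was Peaxi162Scf00123g00096. It was at 1911, 1333 and 1946 CPM in 7AM replicates 1 to 3 and at 21963, 19652 and 20420.5 CPM in 7PM replicates 1 to 3. The lowest evening library was 10.1 times the highest morning library. This ID, on scaffold 123 of the reference by its name, took 1.81 ± 0.14% of all counts at 7PM (SD, n = 3). It ranked 31 at 7AM and 2 at 7PM.

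Next in order, Peaxi162Scf01081g00002 was at 824, 469 and 906 CPM at 7AM and at 14921, 15033 and 14203 CPM at 7PM. Its mean rose 20.1-fold, and 7AM replicate 2 lay well under the other morning libraries. Peaxi162Scf00423g00512 was at 299.8, 178 and 334 CPM at 7AM and at 11107, 11150.1 and 11115 CPM at 7PM. Here the evening libraries were nearly equal in CPM while the morning libraries differed by almost as much as in the ID before it.

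A pair of the leaders kept a high morning level. Peaxi162Scf00064g00421 went from 1861, 1612 and 2059.7 CPM at 7AM to 10983, 11458 and 10821 CPM at 7PM, a ratio of 6.01. Peaxi162Scf00294g00411 went from 2037, 1668 and 1681 CPM to 7852, 9616 and 8547 CPM, a ratio of 4.83. These IDs were already ranked 29 and 30 at 7AM, the highest morning ranks among the members, and their groups did not overlap.

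Among the other leaders, Peaxi162Scf00357g00318 was at 486, 249.5 and 625 CPM at 7AM and at 9888, 9546 and 11279 CPM at 7PM. Peaxi162Scf00858g00215 was at 742, 488 and 773 CPM at 7AM and at 9397, 10495 and 10545 CPM at 7PM. Peaxi162Scf00030g01715 was at 572, 383 and 489 CPM at 7AM and at 8534, 9669.9 and 7726 CPM at 7PM. All 3 were lowest in replicate 2 among the morning libraries, while the lowest evening library differed between them. Their ratios were 22.6, 15.2 and 17.96.

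The sharpest contrast among the first 10 members was in Peaxi162Scf00016g02023. Its morning levels were 107, 55.9 and 118 CPM, and its evening levels were 9323, 10338 and 9784 CPM. It rose 105-fold and moved from rank 1871 to rank 9, so that 0.955% of its evening level was present in the morning. Peaxi162Scf00163g00910, the last of the first 10 members, was at 128, 91.0 and 137 CPM at 7AM and at 6795, 8967 and 7210.2 CPM at 7PM, a 64.6-fold ratio.

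**Figure D3:**
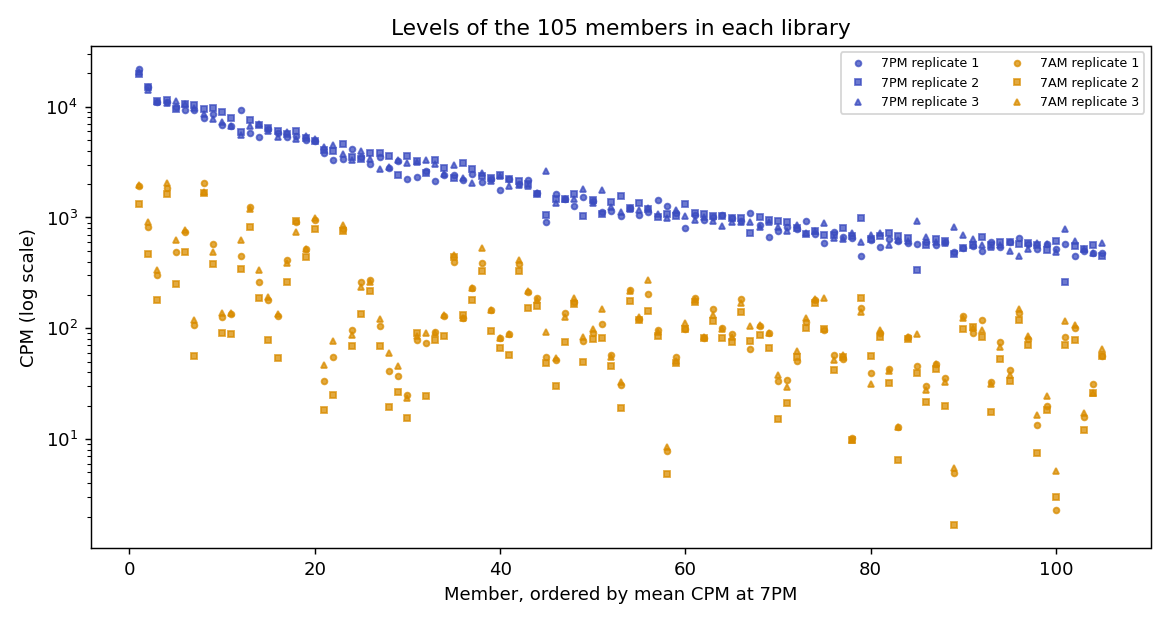
CPM (log scale, y axis) of each of the 105 members in each of the 6 libraries, with members ordered from left to right by mean 7PM level; blue marks are 7PM libraries, orange marks are 7AM libraries, and the shape gives the replicate. Evening values fall smoothly from 20679 to 504 CPM on average, while the morning means under them range from 3.50 to 1844 CPM. No member's groups overlap, which follows largely from the 4-fold difference of the means that the rule requires.

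The level present in the morning varied widely between members. Relative to 7PM, the mean 7AM level was between 0.636% and 24.0%, with a median of 6.87% and quartiles of 3.45% and 13.2%. In CPM the 7AM mean ran from 3.50 to 1844, with a median of 93.7. It was at least 1000 CPM in 4 members and at least 500 CPM in 9. A further 38 members were at 100 to 500 CPM, 54 were at 10 to 100 CPM and 4 were under 10 CPM. The minimum of 2 CPM at 7AM removed no gene, so the set contains every gene of the table that met the evening thresholds.

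The ratio of 7PM to 7AM had a median of 14.6, with quartiles of 7.56 and 29.0. It was 4 to 8 in 27 members, 8 to 16 in 31, 16 to 32 in 22, 32 to 64 in 14, 64 to 128 in 7 and at least 128 in 4. The 27 members with the smallest ratios held 5.35 ± 0.18% of all counts at 7PM (SD, n = 3) and 1.24 ± 0.12% at 7AM. The 25 members with a ratio of at least 32 fell in 3 classes that held 4.38%, 2.81% and 0.45% of evening counts and 0.135%, 0.044% and 0.0041% of morning counts. Steep and moderate rises thus both contributed to the evening block.

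Across the 105 members, log2 mean levels at 7AM and at 7PM had a Pearson's r of 0.66 (Spearman's rho 0.61), where both means come from the libraries that chose the set and the rule cuts off pairs below 4-fold. The ratio followed the evening level weakly, with r of 0.20. It followed the morning level more closely, with r of -0.60, and has that level in its denominator.

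The steepest rises began from few counts. Peaxi162Scf00652g00015 rested on 153, 93 and 163 counts in the morning libraries and on 20330, 15975 and 15024 in the evening libraries. In CPM this was 7.74, 4.84 and 8.56 in the morning and 1265, 1075 and 985 in the evening, a 157-fold ratio. The groups were separated by 115-fold at their nearest values.

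Peaxi162Scf00128g01753 had the lowest morning mean, with 2.28, 3.02 and 5.20 CPM, and stood at 519.6, 619 and 486 CPM in the evening, a 155-fold ratio. Its morning values rest on 45, 58 and 99 counts. Peaxi162Scf00450g00032 had 98, 32 and 104 counts at 7AM, or 4.96, 1.66 and 5.46 CPM, and 491, 463 and 819 CPM at 7PM. Both its morning and its evening libraries were uneven, and its 147-fold ratio is correspondingly loose.

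At higher levels, Peaxi162Scf01060g00147 rose from 24.9, 15.6 and 23.5 CPM to 2204, 3599 and 3132 CPM. Peaxi162Scf00314g00086 rose from 33.3, 18.4 and 46.3 CPM to 3837, 4086 and 4362 CPM. Their ratios were 139.6 and 125. Peaxi162Scf00314g00086 is thus ranked 27 at 7PM after a rank of 5652 at 7AM.

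A pair of low morning genes differed in how even they were. Peaxi162Scf00360g00418 was at 10.2, 9.83 and 9.87 CPM in the morning and at 658, 675 and 723 CPM in the evening. Peaxi162Scf00156g00015 was at 12.7, 6.50 and 12.9 CPM in the morning and at 611, 683 and 627 CPM in the evening. The first had a morning coefficient of variation (the SD as a percentage of the mean) of 1.82%, whereas in the second, replicate 2 was at 0.51 of the geometric mean of the others. The first rested on 201, 189 and 188 morning counts, where counting error alone is larger than 1.82%. Its evenness is therefore not read as a trait of the gene.

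At the other end, the smallest ratios lay just inside the 4-fold threshold. Peaxi162Scf00363g00520 was at 137, 118 and 149.8 CPM at 7AM and at 659, 578 and 452 CPM at 7PM, a ratio of 4.18. Peaxi162Scf00119g00138 was at 178, 167 and 182 CPM at 7AM and at 706, 757 and 762 CPM at 7PM, a ratio of 4.22. Peaxi162Scf00194g00014 was at 154, 188 and 141 CPM at 7AM and at 445, 989.8 and 604 CPM at 7PM, a ratio of 4.23. The second of these was even at both times, while the third rested on a high 7PM replicate 2.

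Just outside that threshold stood Peaxi162Scf00406g00211 with a ratio of 3.998, Peaxi162Scf00562g00216 with 3.95 and Peaxi162Scf00149g01016 with 3.68. Peaxi162Scf00562g00216 reached 2391 CPM at 7PM, rank 49, from 605 CPM at 7AM. At the 500 CPM threshold, the lowest members were Peaxi162Scf00491g00038 at 504 ± 72.3 CPM, Peaxi162Scf00116g01621 at 506 ± 53.0 CPM and Peaxi162Scf00038g02432 at 513 ± 15.9 CPM (SD, n = 3). The nearest genes below it were Peaxi162Scf00207g01345 at 498 ± 35.2 CPM, Peaxi162Scf00081g02226 at 495 ± 43.2 CPM and Peaxi162Scf00034g01413 at 493 ± 163 CPM. These distances are smaller than the spread between replicates for most of the genes named, so membership at the edges is not sharp.

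Also among the 5 members with the highest morning levels were Peaxi162Scf00474g00217 and Peaxi162Scf00553g00538. The first was at 1234, 823 and 1202 CPM at 7AM and at 5806, 7569 and 6711 CPM at 7PM. The second was at 950.0, 782 and 979 CPM at 7AM and at 4939, 4927 and 5115 CPM at 7PM. Peaxi162Scf00478g00048 was at 787, 749 and 855 CPM at 7AM and at 3391, 4613 and 3749.9 CPM at 7PM. With 16.2%, 18.1% and 20.3% of the evening level present in the morning, these transcripts were plentiful at both times.

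All 105 members passed edgeR's filter on low counts and were called higher at 7PM by its quasi-likelihood test (threshold 0.05 after Benjamini-Hochberg adjustment over 17638 tested genes), where 27.5% of all tested genes were called higher. All were also called with a fitted difference of at least 4-fold, against 6.07% of tested genes. The rule used the same contrast, so nothing is read from these counts. The fitted log2 fold change had a median of 3.87 over the members, from 2.07 to 7.30, and of -0.05 over all tested genes. Its SE, from the spread of log2 CPM between libraries, had a median of 0.19.

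The spread between replicates within a time was not itself used by the rule, but each library enters the means that were. A low 7AM replicate 2, for example, lowers the 7AM mean and helps a gene to pass. Without that library 101 of the members remained and 4 were lost. At 7PM the members were about as even as other genes of at least 500 CPM. The coefficient of variation (CV) over the 3 evening libraries had a median of 9.66% for the members (quartiles 5.78% and 15.2%). It was 9.77% for the 144 other genes of at least 500 CPM at 7PM. Among genes of at least 1000 CPM at 7PM, it was 9.47% for 62 members and 14.1% for 45 other genes. For the 41 genes with the reverse pattern, at least 500 CPM at 7AM and at least 4-fold lower but not under 2 CPM at 7PM, it was 25.7%.

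At 7AM the order was different. The CV of the members over the 3 morning libraries had a median of 17.1% (quartiles 10.4% and 28.6%). It was 5.67% for the 144 other genes above and 5.05% for 2854 other genes whose 7AM mean lay between the quartiles of the members. Other genes that were at least 4-fold higher at 7PM were nearer to the members, with a median of 13.2% for 223 genes of 100 to 500 CPM at 7PM and 14.9% for all 529 under 500 CPM. The 41 genes of the reverse pattern were at 8.86% in the morning, so their larger CV was also at the time of their lower level. Across all 17429 genes in both the kept and the tested sets it was 8.20% at 7AM and 12.4% at 7PM. In 73 of 105 members the morning CV exceeded the evening CV. Among all tested genes this was so in 5816 of 17429.

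**Figure D4:**
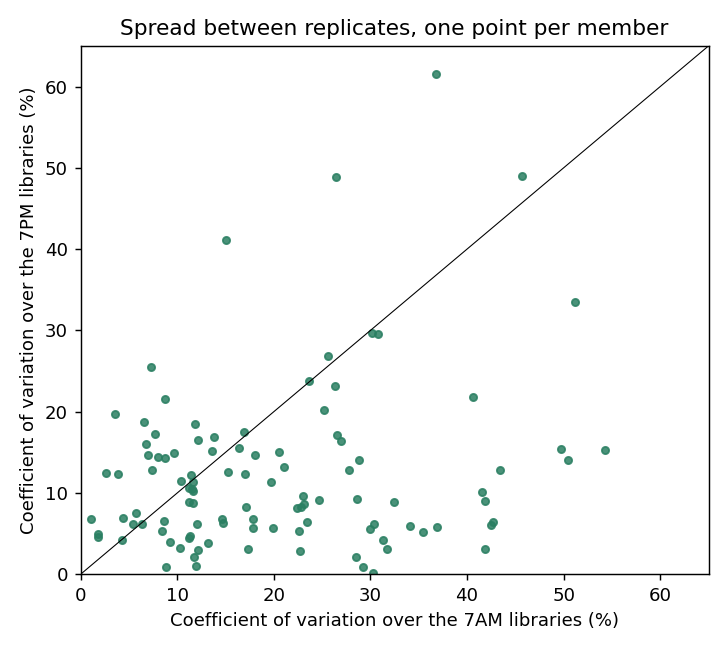
Coefficient of variation (%) of each of the 105 members over the 3 libraries of 7AM (x axis) and of 7PM (y axis), with a line of equality. There are 73 points below the line, and 4 members exceed 40% on the y axis while 12 do on the x axis.

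The uneven mornings rested on replicate 2. Without it, the median morning CV of the members was 5.95%, beside 4.27% for the 144 other genes and 4.28% for the 2854 genes of like morning level. Without replicate 1 or 3 it was 19.7% or 18.3%. These values, over the remaining pair of libraries, were added after the data were seen. Among the 3 morning libraries it was the lowest in 91 of 105 members, which is 86.7%, compared with 31.6% of all tested genes. Replicate 1 was lowest in 10 members and replicate 3 in 4. The highest morning library was replicate 3 in 62 members, replicate 1 in 37 and replicate 2 in 6. Relative to the mean of its own time, the median member stood at 1.07 in 7AM replicate 1, 0.83 in replicate 2 and 1.10 in replicate 3. Each other scaling gave 92 or 93 members lowest in replicate 2.

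The depth of that gap differed between members. Divided by the geometric mean of replicates 1 and 3, the level in 7AM replicate 2 had a median of 0.76 over the members and ran from 0.30 to 1.60. It was more than 1.5-fold under the others in 37 members, or 35.2%, against 4.72% of all tested genes. The lowest quotient was that of Peaxi162Scf00003g02440, named after its values were seen, with 73.7, 24.5 and 89.8 CPM at 7AM and 2616, 2523 and 3308 CPM at 7PM. In the already named Peaxi162Scf00450g00032 it was 0.32. The highest was in Peaxi162Scf00160g01744, also named after the fact, with 39.5, 56.4 and 31.5 CPM at 7AM and 631, 639.8 and 698 CPM at 7PM.

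The gap in replicate 2 was wider in members with a steeper rise. Its median quotient was 0.83 in the 27 members with a ratio of 4 to 8 and 0.84 in the 31 with a ratio of 8 to 16. It was 0.66 in the 22 with a ratio of 16 to 32, 0.59 in the 14 with 32 to 64 and 0.50 in the 7 with 64 to 128. In the 4 members with a ratio of at least 128, the class with the lowest median morning level, it was 0.62. Over the 105 members the log2 quotient and the log2 ratio had a Pearson's r of -0.56 (Spearman's rho -0.53). Replicate 2 is part of the 7AM mean in that ratio. With the ratio taken against 7AM replicates 1 and 3 alone, r was -0.50 (rho -0.48), and then these replicates stand in both quantities.

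**Figure D5:**
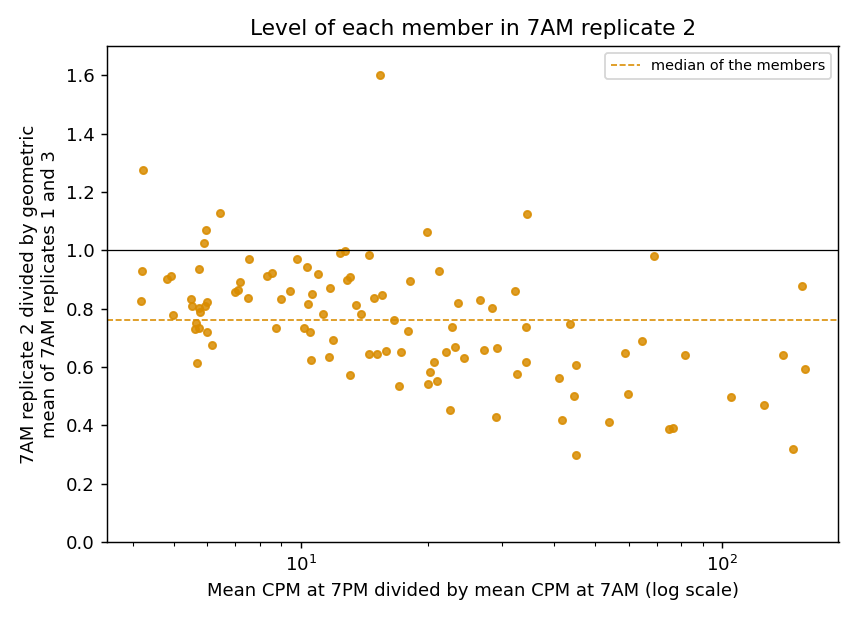
Level in 7AM replicate 2 divided by the geometric mean of 7AM replicates 1 and 3 (y axis) against the ratio of mean CPM at 7PM to 7AM (x axis, log scale), 1 point per member. The solid line marks equality and the dashed line the median of 0.76. Points reach from 1.60 down to 0.30, with class medians of 0.83 at ratios of 4 to 8 and 0.50 at ratios of 64 to 128.

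Other sets of genes showed this to different degrees. They too were defined with the 7AM mean, of which replicate 2 is a part. Among 223 genes of 100 to 500 CPM at 7PM that were also at least 4-fold higher than at 7AM, replicate 2 was the lowest morning library in 62.8% and the median quotient was 0.88. Among the 91 genes of at least 500 CPM at 7PM that differed by less than 2-fold, it was lowest in 25.3%, with a median of 1.02. In the 41 genes of the reverse pattern it was lowest in 12.2% and highest in 31, with a median of 1.10. The comparison with the 223 genes was added after the values of the members were seen. What sets replicate 2 apart from the other morning libraries was not tested. Its total of 16990908 counts lay between those of replicates 1 and 3.

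In the evening no library stood out to that degree. Replicate 2 was highest in 54 members, replicate 3 in 35 and replicate 1 in 16, or 51.4%, 33.3% and 15.2%. The shares over all tested genes were 34.6%, 30.9% and 34.6%. The median member stood at 0.96, 1.03 and 0.99 of its own evening mean in replicates 1 to 3. The 3 evening libraries also ranked the members alike, with Spearman's rho of 0.953 to 0.968 between them across the 105 genes.

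Some members had a small CV over the evening libraries. The CV at 7PM was under 5% in 20 members and under 10% in 53. The lowest was that of Peaxi162Scf00423g00512, 0.207% around 11124 CPM, on 165704 to 178555 counts per library. This value is the smallest of 105, each from 3 libraries, and is no larger than counting error alone. As a share of all counts, without TMM, the same ID was at 0.971 ± 0.019% (SD, n = 3), so its evenness depends on the scaling. Peaxi162Scf00044g00055 followed with 1673, 1643 and 1665 CPM, and Peaxi162Scf00220g00211 with 1481, 1455 and 1461 CPM. Their morning levels were 189, 159 and 179.9 CPM for the former and 136, 74.8 and 125 CPM for the latter. An even evening level thus occurred both with an even and with an uneven morning level.

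A few members were uneven in the evening. The largest CV, 61.5%, was that of Peaxi162Scf00421g00826, at 913, 1053 and 2601 CPM in 7PM replicates 1 to 3. Peaxi162Scf00386g00921 was at 581, 332 and 932 CPM, and Peaxi162Scf00498g00314 at 573, 262 and 786 CPM. All 3 were highest in 7PM replicate 3. In the morning they were at 55.5, 48.1 and 93.1 CPM, 46.0, 39.9 and 88.6 CPM, and 82.7, 70.9 and 117 CPM, highest in 7AM replicate 3 as well. No label ties the libraries with the same number to each other.

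Peaxi162Scf00498g00314 has the narrowest gap between the times, with its lowest evening library 2.24 times its highest morning library. Peaxi162Scf00194g00014, the other member with a CV above 40%, was instead highest in 7PM replicate 2. In 4 members the highest evening library was more than 2 times the lowest, and in 13 members the same held among the morning libraries. Over the members the median quotient of highest to lowest library was 1.20 at 7PM and 1.41 at 7AM.

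By the scaffold number in their IDs, the 105 members lay on 90 scaffolds. There were 14 scaffolds with several members, 29 members in all, and at most 3 on any of them. Taking the number after the scaffold as the order of the IDs along it, 2 pairs of members were direct neighbours. Peaxi162Scf00163g00910 and Peaxi162Scf00163g01014, on scaffold 163, had nearly the same level in every library. The latter was at 135, 88.7 and 139 CPM at 7AM and at 6704, 7899.5 and 6716 CPM at 7PM. The quotient of their counts was 0.99 ± 0.04 in the morning and 1.07 ± 0.06 in the evening (SD, n = 3). How the counting treated reads that match both, if the IDs are near-identical copies, is unknown here, so their separate levels are uncertain.

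The other pair was Peaxi162Scf00116g01620 and Peaxi162Scf00116g01621 on scaffold 116. The first was at 57.1, 46.1 and 55.3 CPM at 7AM and at 1147, 1369 and 1236 CPM at 7PM. The second was at 31.6, 25.8 and 26.3 CPM at 7AM and at 476, 567 and 474 CPM at 7PM. Their quotient of counts was 1.90 ± 0.18 in the morning and 2.48 ± 0.11 in the evening (SD, n = 3), so the first rose somewhat more than the second. Whether they are separate genes or parts of 1 transcript cannot be told from the table.

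Of the 83 members with a tested gene directly beside them on the scaffold, 13 (15.7%) had a neighbour called at least 4-fold higher at 7PM. The same was true of 8.09% of all 13927 tested genes with such a neighbour. The 13 include the 4 members that neighbour each other. The other neighbours called were at far lower evening levels. The highest was Peaxi162Scf00423g00412, beside Peaxi162Scf00423g00512, which went from 67.1 to 296 CPM. The called neighbour of Peaxi162Scf00016g02023 went from 0.516 to 8.05 CPM, and that of Peaxi162Scf00357g00318 from 0.396 to 7.92 CPM. Calls from such near-zero morning levels rest on few counts. The difference from 8.09% is therefore not read as neighbours rising together.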

How the data were processed

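RNA from corollas was sequenced at 7AM and 7PM, 3 libraries each. The authors deposited 1 table of raw read counts per gene ID, not normalized, aligned to a Petunia axillaris reference per the series' design text. Cutadapt, TopHat2 and HTSeq are listed in the submitters' processing notes. Versions, settings, genome release, annotation, strand and multiply matching reads: not given in the sources used here. Reads of the hybrid cultivar that differ from that species may align less well, which was not tested.

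Members were found on genes with at least 60 counts in all, with TMM in edgeR 4.0.16 (R 4.3.3). edgeR's quasi-likelihood test (filterByExpr, TMM, Benjamini-Hochberg, threshold 0.05) was fitted on all genes without a replicate block and was tested on simulated data. The SE uses log2 CPM with a prior count of 2. Totals of 16497054 to 18040038 counts make counting error small for members except at the lowest morning levels. Alternatives were other scalings, filters, thresholds and tests (DESeq2 1.42.0, limma 3.58.1) and each library left out. IDs were named by rank in 7PM level, 7AM level, ratio and evening CV, by distance to the thresholds and by adjacency, unless marked. The members, lists and rules were chosen with earlier results of these data known.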

Additional observations from a re-analysis of the deposited data

How the results depend on the processing

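With other scalings the rule gave 87 members (library totals), 104 (upper quartile) and 110 (DESeq2 size factors, and TMM without the members). Library totals added none and lost 18. The members then held 23.7% of 7PM and 2.09% of 7AM counts, with a median ratio of 11.8. The sets of 110 held 26.0% of 7PM counts. Thresholds of 1000 and 250 CPM gave 62 and 168 members. With each library left out, there were 101 to 118 members, 25.4% to 26.6% of 7PM counts, 2.37% to 2.72% of 7AM counts and median ratios of 13.3 to 15.0. The median morning CV of the 105 members, 17.1%, lay between 5.95% (without replicate 2) and 19.7% with 1 morning library left out. With the replicate number as a block, 105 members were called, as in each other fit. The rule had already chosen them by this contrast, so these calls are a description. The labels do not say whether same-numbered libraries were paired. Their deviations correlated at -0.24, 0.10 and 0.09, and at -0.32 to 0.27 for other numbers. With 3 libraries per time these values cannot decide it. All 528 alternative values of 33 named members kept their direction and call. Nothing is read from this either, since the rule required these members to be at least 4-fold higher at 7PM. The scalings applied to the count of 91 members lowest in 7AM replicate 2 and the CV values with a library left out were chosen after seeing the data. Gene length limits comparisons of levels between genes. Counts are relative, so a change in total RNA would not be seen.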
